A study of Mus musculus with 20 samples.

Results

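Bone marrow-derived macrophages (BMDMs) exposed to the protein-enriched airway fluid fraction (ProteinFx) of RNY1-/- mice were compared with BMDMs that received the PBS vehicle, 4 libraries against 4. The members are the 10858 genes, of 78409 listed, with a mean of at least 3 CPM (the count of a gene scaled by the total count of its library) over these 8 libraries. They held 99.3% of the counts, and 9504 of them were protein coding and 594 were long noncoding RNAs. The limit cut through a dense range of genes, with 77 at 3 to 3.1 CPM just inside and 89 at 2.9 to 3 CPM just outside. The test used a further filter on counts and ran on 10855 genes, 10853 of them members. The 5 members not tested were Slc35c2, Slc35e3, Zfp1007, Brms1 and Gm20441.

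The whole series held 20 libraries of 3′ end RNA sequencing, with 4 for each of 5 treatments. All macrophages were wild-type C57BL/6J cells grown from the marrow of female mice in medium conditioned by L929 fibroblasts and treated on day 7 of culture, after a change to serum-free Opti-MEM. ProteinFx was bronchoalveolar lavage fluid of mice with ovalbumin-induced allergic airway inflammation, taken from the late fractions of a size exclusion column that are rich in soluble protein and poor in vesicles, and was given at 0.75 µg/µL of protein after 5 days of cold storage. RNY1-/- denotes a CRISPR deletion of RNY1 in the mice that gave the fluid, so the deletion was in the donors and not in the macrophages. The RNY1+/+ ProteinFx came from the same procedure in mice with intact RNY1, and the vesicle-enriched fractions (EVFx) of both genotypes were given at an equal number of particles. The 4 PBS libraries received no airway material, so the comparison holds all that the fraction carried and not the absence of RNY1 alone. The treatment time, the number of fluid donors and the ages of the animals of each library are not given in the labels. They also leave out whether a group's libraries stem from separate cultures.

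Y RNAs are short noncoding RNAs, transcribed by RNA polymerase III, that fold into a stem with a loop and bind the proteins Ro60 and La. Macrophages sense foreign nucleic acids, microbial products and cytokines. Type I and type II interferons act on them through JAK kinases and STAT factors, which switch on interferon-stimulated genes, while interleukin 4 and interleukin 13 act through STAT6 and raise the genes of alternative, or type 2, activation. Airway fluid in allergic inflammation can carry signals of both kinds, together with serum proteins, proteases and debris of dead cells.

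The 8 libraries did not form 2 even groups. Their totals ran from 4372150 to 6473209 counts in PBS and from 2510005 to 7149366 in RNY1-/- ProteinFx. The base composition of transcripts set libraries apart within both groups. In PBS replicate 3, genes rich in G and C were low relative to the mean of its group (Spearman correlation of the deviation with transcript GC content, -0.65 across 10510 genes, a description, since genes of 1 library share its preparation), as they were in RNY1-/- ProteinFx replicates 3 and 4 (-0.49 and -0.43). In PBS replicates 1 and 2 and RNY1-/- ProteinFx replicates 1 and 2 the same correlation ran from 0.49 to 0.63, and in PBS replicate 4 it was -0.15. Counts of DEGs, and the values of several genes and lists, are therefore given also with the length and GC trends of each library removed, or without the 3 libraries low in GC-rich genes. All 20 libraries carried the same batch label, and the part of this trend in any result was not tested.

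**Figure D1:**
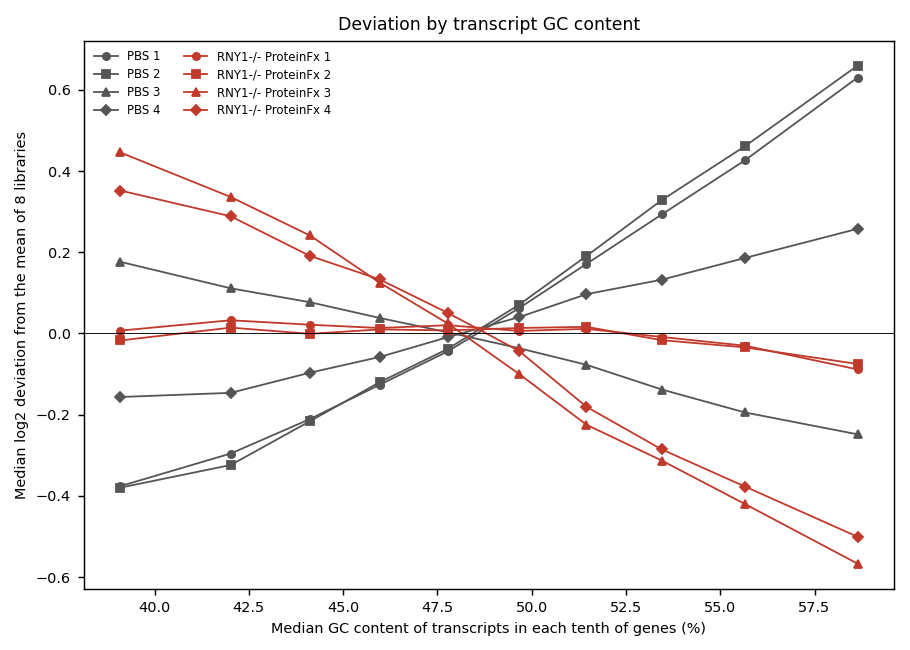
Median log2 deviation of each of the 8 libraries from their mean (vertical axis) in 10 groups of genes ordered by the GC content of their transcripts (horizontal axis, %). PBS replicates 1 and 2 lie highest among GC-rich genes and RNY1-/- ProteinFx replicates 3 and 4 lowest, with PBS replicate 3 bent the same way as those 2.

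The Y RNAs themselves were hardly measured. Mice have the RNAs Rny1 and Rny3, shown here because Rny1 is the RNA that the donors of this fraction lacked. Their sequences come from the GENCODE transcripts on GRCm38, Rny1 (ENSMUSG00000065701) at chr6:47788069-47788180 on the minus strand and Rny3 (ENSMUSG00000064945) at chr6:47781624-47781725 on the plus strand, with the longest run of bases that both share, 12 bases, in capitals.
Rny1: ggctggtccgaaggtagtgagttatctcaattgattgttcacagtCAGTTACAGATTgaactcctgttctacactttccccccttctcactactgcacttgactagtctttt
Rny3: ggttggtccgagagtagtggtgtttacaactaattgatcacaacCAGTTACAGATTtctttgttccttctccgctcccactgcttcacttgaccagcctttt
Rny1 is 112 bases long and Rny3 102. The Rny1 entries summed to 0 counts over the 4 PBS libraries, 1 over the 4 RNY1-/- ProteinFx libraries and 12 over all 20. Rny3 summed to 3.62 in PBS and 1 in RNY1-/- ProteinFx, where fractions come from reads shared between sites. No library held more than 3 counts of Rny1, which is the floor used here, and capture by oligo(dT) favours RNAs with a poly(A) tail. These counts therefore check neither the genotype of the fluid nor the labels.

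The libraries had the profile of macrophages. All 10 macrophage markers were measured, and their summed level was 11767 ± 1044 CPM (SD, n = 4) after RNY1-/- ProteinFx and 13636 ± 2135 in PBS (exact two-sided permutation p = 0.143). Adgre1, which encodes F4/80, rose from between 763 and 1013 CPM to between 2114 and 2728, while Tyrobp, a signalling adaptor, fell from between 919 and 1640 CPM to between 483 and 674. Csf1r, the receptor for macrophage colony-stimulating factor, ranged from 180 to 332 CPM in PBS and from 154 to 305 in RNY1-/- ProteinFx.

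No list of markers of other cells that airway fluid could carry was higher in the treated libraries by the exact test. The neutrophil list summed to 351 ± 56.1 CPM after RNY1-/- ProteinFx and 346 ± 15.9 in PBS (exact permutation p = 0.886). Nearly all of it was S100a8, S100a9 and Mmp8, and Ly6g was at 0 in all 8 libraries. The eosinophil list summed to 12.7 to 17.1 CPM after treatment and 7.65 to 13.6 in PBS (exact permutation p = 0.0857), with Epx and Il5ra at 0 throughout. Of 9 lymphocyte, 6 dendritic cell and 7 erythroid and mast cell markers, none reached the limit for testing, and their sums did not exceed 4.2, 3.09 and 1.14 CPM in any library. The fibroblast and epithelial list was lower after treatment, 34.4 ± 3.72 against 51.0 ± 9.44 CPM (exact permutation p = 0.0286, the smallest that 4 against 4 allows), and its part in other results was not tested. In bulk RNA a change in the number of cells of a type and a change in the RNA of each cell cannot be told apart.

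The fraction changed the abundance of a large share of the genes measured. Differentially expressed genes (DEGs) had a Benjamini-Hochberg adjusted p under 0.05 in edgeR's quasi-likelihood test and an absolute log2 fold change above 1. By this rule 685 genes were higher in RNY1-/- ProteinFx than in PBS (6.31% of 10855 tested) and 867 were lower (7.99%), with a median log2 fold change over all genes of -0.03. The rises were larger than the falls. The median log2 fold change was 1.59 among higher DEGs and -1.25 among lower DEGs, and 104 genes rose by more than 3 on the log2 scale while 14 fell by as much. Among protein-coding genes 595 were higher and 730 lower, and among long noncoding RNAs 63 and 45. The limit of 3 CPM is a mean over both groups, so genes under it in every PBS library passed only through the treated libraries. Arg1, Gbp11, Flt1, Cxcl9, Ccl24, Il1b, Tarm1, Socs3, Cd55 and Ass1, described below, are among these genes. For them the limit itself fixed the direction of the change, and their place among the higher genes follows in part from it. In the same way, genes under the limit in every treated library passed only through PBS, which fixed their direction as lower. Birc5, described below, is such a gene. Levels did not overlap between the groups for 656 of the higher and 608 of the lower DEGs. These genes had already been called from the same 8 libraries, so the counts add no separate support.

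Higher and lower DEGs differed in the base composition of their transcripts. The median GC content of transcripts was 45.9% for higher DEGs, 54.9% for lower DEGs and 48.7% for all genes with an annotated transcript. Across the latter, the log2 fold change had a Spearman correlation of -0.49 with GC content and 0.22 with length, as a description. Removing the trends also removes this difference between the groups, and its origin was not tested. With the length and GC trends of each library removed, 602 genes were higher (5.73% of 10510) and 441 lower (4.2%). Of the DEGs with an annotated transcript, 511 of 648 higher and 345 of 829 lower remained DEGs in the same direction. Without PBS replicate 3 and RNY1-/- ProteinFx replicates 3 and 4 the test found 651 higher (5.97% of 10896) and 854 lower (7.84%). Without RNY1-/- ProteinFx replicates 3 and 4 but with PBS replicate 3, 364 were lower, so the number of falls rested on which libraries of each group were set against each other.

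**Figure D2:**
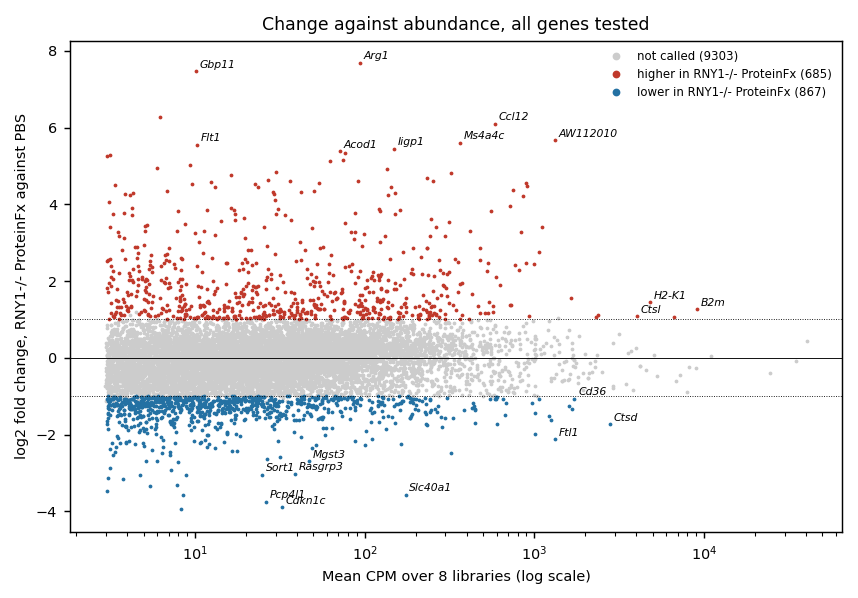
The log2 fold change of RNY1-/- ProteinFx against PBS (vertical axis) is plotted for each of the 10855 genes tested against its mean CPM over 8 libraries (horizontal axis, log scale), with the 685 higher and 867 lower DEGs coloured. Arg1 stands highest at 7.68, and the rises reach further from 0 than the falls.

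Arginase 1 led all rises. The 8 largest rises averaging 10 CPM or more, without overlap between the groups, are given first. Arg1 (ENSMUSG00000019987), which splits arginine into ornithine and urea and marks alternative activation, was at 0.615, 1.39, 0.915 and 0.712 CPM in the PBS libraries and at 242, 193, 165 and 151 CPM after RNY1-/- ProteinFx. It went from a handful of molecules per library to a clear signal in all 4 (log2 fold change 7.68, SE 0.24, adjusted p = 1.72e-08). Gbp11, an interferon-induced guanylate-binding protein, was at 0, 0, 0.304 and 0.237 CPM in PBS and at 16.6 to 23.7 CPM after treatment, at least 35.1-fold higher when PBS is set to the floor of 3 counts per library. The chemokine Ccl12 went from 10.7 to 23.4 CPM up to 1009 to 1348 CPM, a log2 fold change of 6.09. The interferon-induced transcript AW112010 rose from 47.8 to 61.9 CPM up to 2472 to 2703 CPM (log2 fold change 5.67). Neither Ccl12 nor AW112010 had a treated library anywhere near the PBS range.

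The other 4 of these 8 rises were Ms4a4c, Flt1, Iigp1 and Acod1. Ms4a4c, a membrane protein induced by interferon, rose from between 12.8 and 19.2 CPM to between 623 and 870 (log2 fold change 5.61). Flt1, the receptor VEGFR1, was at or under 3 counts in each PBS library and at 17 to 22.3 CPM after treatment, at least 35.0-fold higher. Iigp1, an immunity-related GTPase that attacks vacuoles of parasites, rose from between 5.34 and 8.46 CPM to between 269 and 327 (log2 fold change 5.45), and Acod1, which makes the antimicrobial metabolite itaconate, from between 2.46 and 5.72 CPM to between 127 and 152 (5.38). Removing the trends moved these 8 log2 fold changes little, from 7.68 to 7.65 for Arg1 and from 5.45 to 4.98 for Iigp1 at the extremes of this set.

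**Figure D3:**
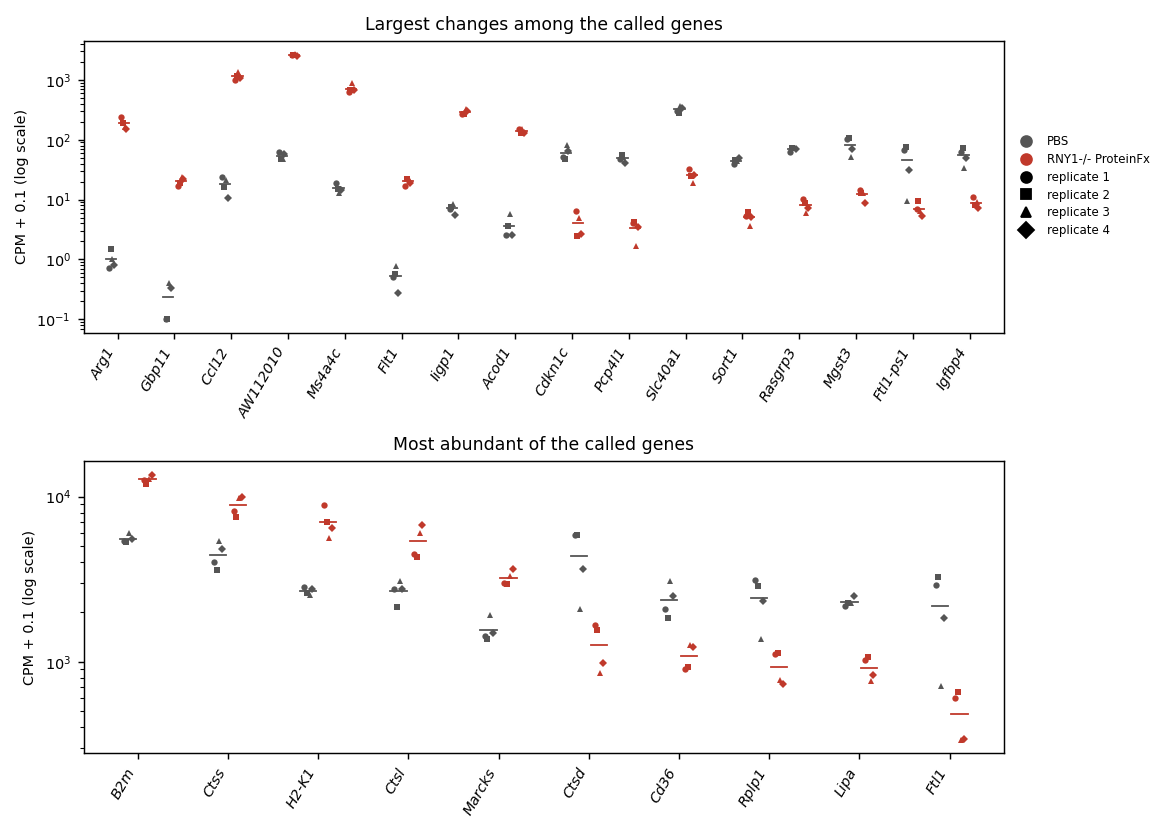
CPM + 0.1 (log scale) in each PBS and RNY1-/- ProteinFx library for the genes named by rank, with a marker shape for each replicate: the largest rises and falls and the most abundant DEGs in each direction. The groups do not overlap for any gene shown, as the rule for naming them required. The gap is narrowest for Ftl1-ps1, at 9.42 CPM in PBS replicate 3 and 9.33 CPM in the highest treated library.

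Interferon-stimulated genes rose together. Of 87 members tested in the list of interferon-stimulated effectors, 73 were higher and none lower, with a median log2 fold change of 2.16, and the 14 others had no call in either direction. The list's median difference from PBS was 2.12, 2.11, 2.12 and 2.08 in the 4 treated libraries, while single members could differ between them, as Ifit1 did. With the trends removed the count was again 73, at a median of 2.04. The remaining 14 included Ifitm2 (log2 fold change -0.01), Bst2 (0.91, adjusted p = 0.075) and Adar (0.85). All 19 guanylate-binding proteins and immunity-related GTPases were higher, at a median of 3.86, though reads of the near-identical pairs Tgtp1 and Tgtp2, and Gvin1 and Gvin2, cannot be assigned with certainty.

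Single genes of these lists rose in all 4 libraries. Ifit1 (ENSMUSG00000034459), which binds viral RNA that lacks host cap methylation, was at 94.3, 71.7, 112 and 96.6 CPM in PBS and at 1028, 1108, 2464 and 1941 CPM after RNY1-/- ProteinFx (log2 fold change 4.22, SE 0.33, adjusted p = 6.05e-06). Mx1, a dynamin-like GTPase that blocks orthomyxoviruses, was at 15 to 18.5 CPM in PBS and at 207, 248, 263 and 200 CPM after treatment (3.82, SE 0.14, adjusted p = 4.25e-08). The Ifit1 levels of treated replicates 3 and 4 were above those of 1 and 2, while Mx1 showed no such split. Rsad2, the antiviral enzyme viperin, rose from between 159 and 169 CPM to between 1396 and 1666 (3.28). Isg15, a ubiquitin-like modifier, went from between 27.0 and 66.0 CPM to between 342 and 565 (3.17). Gbp2 rose from between 15.1 and 23.7 CPM to between 402 and 586 (4.61), and Gbp7 from between 18.4 and 23.4 CPM to between 281 and 317 (3.85).

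The factors that carry the interferon signal rose in part. Of 28 IRF, STAT and SOCS genes tested, 9 were higher and none lower, at a median of 0.48. Irf7, a factor that amplifies type I interferon responses, rose from between 38.9 and 96.7 CPM to between 255 and 375 (log2 fold change 2.18). Socs3, a feedback inhibitor of cytokine receptors, had the largest change of the list, from 0.618 to 1.14 CPM up to 16.6 to 20.4 CPM (4.54). Of 23 nucleic acid sensors and adaptors, 6 were higher and none lower (median 0.52). These were Ifih1 (2.57) and Rigi (2.23), which sense double-stranded RNA in the cytosol, with Tlr3, Dhx58, Sting1 and Tlr1. The list counts Tlr1, although it is a cell surface receptor for bacterial lipopeptides and does not sense nucleic acids. Cgas, the cytosolic DNA sensor (0.75), and Tlr7, the endosomal receptor for single-stranded RNA (0.35), did not pass the fold limit. Transcripts of the interferons were near absent, with Ifnb1 at 0 in all PBS libraries and at 0 to 0.797 CPM after treatment, and Ifng at 0 in all but 1 of the 8 libraries.

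The promoters of these genes carried the sequence through which interferon acts more often than promoters at large. The letters GAAA, any 2 bases and GAAA again, the core of the interferon-stimulated response element, were searched on both strands in the 250 bases before each start in the RefSeq promoter table (GRCm38.p6). Of 685 higher DEGs, 485 matched the table, under 484 gene symbols, and 79 of their 628 windows held the letters (12.6%). The share was 2.31% for the lower DEGs, with 17 of 737 windows, 2.95% for all genes tested and 2.98% for all 32851 windows of the table. Among higher genes of the interferon lists above it was 46.5%, 40 of 86 windows of 70 genes. Among members of these lists that were tested and not higher it was 21.4%, 3 of 14 windows. These lists were made of genes known to respond to interferon, so a high share among them is no independent support. The letters TTC, any 3 bases and GAA, the GAS element of interferon-activated promoters, were in 15.1% of those 86 windows, 8.76% of all higher windows, 5.43% of lower windows, 5.73% of windows of genes tested and 7.02% of the table. For TTC, any 4 bases and GAA, bound by STAT6, the shares were 12.8% of the 86 windows, 6.21% for higher DEGs, 5.56% for lower DEGs, 4.66% for genes tested and 5.85% for the table. The letters TATAAA of the TATA box, searched in the same way, were in 13.2% of higher windows and 17.4% of the 86 windows. Their share was 6.24% of lower windows, 6.39% of windows of genes tested and 12.4% of the table. A larger share among higher DEGs than among genes tested was thus not particular to interferon elements. A match is a description of letters and no evidence of binding. The absence of one says only that the letters searched are not in the window.

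The following stretches, chosen after the values were seen, show the elements in 6 of these genes, with response elements and GAS elements in capitals and each strand read 5′ to 3′ toward the gene. They lie at chr19:34640775-34640823 (plus) for Ifit1, chr4:156200865-156200906 (minus) for Isg15, chr5:92349083-92349112 (minus) for Cxcl10, chr3:142620594-142620623 (plus) for Gbp2, chr3:142530220-142530302 (plus) for Gbp7 and chr11:58214892-58214932 (plus) for Irgm2, all on GRCm38.p6.
Ifit1: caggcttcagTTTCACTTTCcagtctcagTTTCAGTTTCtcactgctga
Isg15: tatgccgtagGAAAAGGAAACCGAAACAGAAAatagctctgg
Cxcl10: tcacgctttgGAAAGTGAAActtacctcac
Gbp2: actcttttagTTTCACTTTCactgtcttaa
Gbp7: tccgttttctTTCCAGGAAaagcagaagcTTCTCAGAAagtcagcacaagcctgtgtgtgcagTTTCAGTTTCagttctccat
Irgm2: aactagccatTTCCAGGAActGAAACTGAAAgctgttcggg
Ifit1 held 2 response elements within 114 to 66 bases before its start, and Isg15 held 3 that overlap. Gbp7 held 1 response element and 2 GAS elements, and Irgm2 1 of each. Irgm2, which regulates the immunity-related GTPases, rose from between 7.65 and 12.7 CPM to between 55.9 and 92.8 (log2 fold change 3.01).

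Chemokines that draw monocytes and T cells were among the strongest rises. Of 33 CC and CXC chemokines listed, 16 passed the limit for testing. Of these, 11 were higher and none lower, at a median log2 fold change of 2.21. Ccl2, the main ligand of the monocyte receptor CCR2, was at 94.1, 90.8, 132 and 48.9 CPM in PBS and at 949, 1043, 1876 and 1494 CPM after treatment (3.96, SE 0.34, adjusted p = 1.23e-05). Ccl7 went from between 43.6 and 105 CPM to between 1345 and 2343 (4.48), and Ccl8 from between 49.2 and 106 CPM to between 1435 and 2247 (4.55). The interferon-induced ligands of CXCR3 rose too, Cxcl10 from between 2.66 and 5.95 CPM to between 66.7 and 136 (4.34) and Cxcl9 from between 0.457 and 0.618 CPM to between 12.1 and 21.8 (5.03). Ccl24, an eosinophil attractant of type 2 responses, went from between 0.178 and 0.820 CPM to between 4.38 and 13 (4.25). Ccl3 and Ccl4, abundant in both groups, had log2 fold changes of -0.17 and -0.02 and were not called.

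Cytokines moved in both directions. Of 47 cytokines listed, 23 passed the limit for testing, with 8 higher and 5 lower. Il1b, the main secreted form of interleukin 1, was at 0, 0.463, 0.915 and 0.534 CPM in PBS and at 7.75, 7.41, 3.59 and 5.71 CPM after RNY1-/- ProteinFx (log2 fold change 3.75, adjusted p = 0.000162). Il1rn, the antagonist that blocks the interleukin 1 receptor, rose from between 36.5 and 56.6 CPM to between 173 and 212 (2.15). Tnf, at 3.89 to 6.95 CPM in PBS and 7.57 to 11.1 CPM after treatment, did not pass the fold limit (0.81, adjusted p = 0.0179). Il6 and Il12b stayed under the limit for testing, at most 1.59 and 0.559 CPM in any library. The 5 lower genes were Pdgfb, Gdf15, Tgfb1, Tnfsf12 and Tnfsf13, and with the trends removed 10 cytokines were higher and 2 lower. Without RNY1-/- ProteinFx replicate 3, or without replicate 4, 3 were lower.

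Of 48 NF-kB subunits and feedback genes, 18 were higher and 1, Rela, was lower, at a median of 0.72. Sod2, the mitochondrial superoxide dismutase, rose from between 77.9 and 93.5 CPM to between 401 and 541 (log2 fold change 2.54). Ptgs2, the inducible cyclooxygenase, rose by 3.13, Nfkbiz by 2.28 and Nfkbia, the inhibitor that NF-kB induces, by 1.12. Rela stood at -1.09, with overlap between the groups, and at -0.51 with the trends removed, when no member of the list was lower.

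Part of the type 2 list rose strongly and part of it did not. Of 23 members tested, 11 were higher and 1 lower, with a median log2 fold change of 0.97. Beside Arg1 and Flt1, the arginine transporter Slc7a2 rose from between 2.29 and 4.10 CPM to between 55.7 and 82.5 (4.62), and Cd274, the checkpoint ligand PD-L1, from between 22.9 and 38.4 CPM to between 185 and 254 (3.03). Cd274 and Socs2 of this list also respond to interferon. Chil3, a chitinase-like protein, rose from between 8.6 and 12 CPM to between 23.1 and 30.2 (1.37), and Il4ra, the receptor subunit for both interleukin 4 and 13, by 1.12. Mrc1, the mannose receptor CD206, did not pass the fold limit (0.68, adjusted p = 0.0345), and its groups overlapped. Retnla was at 0 in all PBS libraries and at 0.519 to 0.839 CPM after treatment, near the floor. Cd36, a scavenger receptor for lipids and the list's only lower member, fell from between 1842 and 3075 CPM to between 909 and 1262 (-1.06, and -1.53 with the trends removed).

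Genes that handle arginine and superoxide moved in both directions, 8 higher and 3 lower of 21. Ass1, which rebuilds arginine from citrulline, rose from between 1.69 and 2.24 CPM to between 15.7 and 21.3 (log2 fold change 3.26). Nos2, the inducible nitric oxide synthase, was at or under 3 counts in each PBS library and at 1.59 to 7.56 CPM after treatment, at least 6.54-fold higher, and was not tested for its low level. Sod1, which removes superoxide in the cytosol, fell from between 166 and 273 CPM to between 53.6 and 82.5 (-1.69), and stood at -1.82 with the trends removed. The gene of catalase, which removes hydrogen peroxide, was also a lower DEG.

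Antigen presentation rose in both classes. Of 25 genes of MHC class I and antigen processing, 18 were higher and none lower, at a median of 1.28. B2m, the invariant light chain, was the most abundant higher DEG of the whole comparison, with 5280 to 6024 CPM in PBS and 11873 to 13600 CPM after treatment (log2 fold change 1.27, SE 0.11, adjusted p = 1.95e-05). H2-K1, a classical heavy chain, rose from between 2530 and 2835 CPM to between 5624 and 8866 (1.45), and Tap1, the peptide transporter, from between 34.3 and 56.1 CPM to between 127 and 188 (1.83). H2-M2, a nonclassical heavy chain, rose from between 2.01 and 5.33 CPM to between 93.7 and 145 (5.12), with the caution that class I genes share sequence.

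Of 21 genes of MHC class II and costimulation, 9 were higher and none lower, at a median of 0.92. Cd86, a ligand of CD28, rose from between 16.7 and 22.7 CPM to between 88.1 and 123 (log2 fold change 2.44), and the class II chain H2-Ab1 from between 7.32 and 10 CPM to between 19.7 and 30.0 (1.69). Ctss, the protease that trims the invariant chain, rose from between 3584 and 5407 CPM to between 7525 and 9986 (1.07). It was near the fold limit and at 0.95 with the trends removed, as was Ctsl, another cathepsin (1.08, then 0.78). Marcks, an actin-linking substrate of protein kinase C, stood likewise at 1.12 and then 0.85.

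Receptors changed by kind. Of 22 Fc and complement genes, 7 were higher and 1 was lower. Fcgr1, the high-affinity IgG receptor and itself an interferon target, rose from between 97.4 and 153 CPM to between 422 and 494 (log2 fold change 1.90). The central complement component C3 rose from between 8.46 and 16.2 CPM to between 114 and 169 (3.52), Cfb by 2.71 and Cd55, a shield against complement, from between 0.463 and 1.96 CPM to between 20.2 and 44.9 (4.77). Of 32 scavenger, lectin and formyl peptide receptors, 10 were higher and 7 lower. Tarm1 was at or under 3 counts in each PBS library and at 10.4 to 15.8 CPM after treatment, at least 21.4-fold higher. Clec4e, the lectin Mincle, rose from between 17.8 and 21.5 CPM to between 156 and 210 (3.23), while Trem2, a lipid sensor, fell from between 327 and 641 CPM to between 121 and 198 (-1.57).

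Receptors for chemokines, nucleotides and lipid mediators gave 11 higher and 4 lower of 31. Ccr1 and Ccr2 rose by 2.09 and 1.45 on the log2 scale, and the leukotriene receptors Cysltr1 and Cysltr2 by 1.87 and 2.05. Gpr34, a receptor for lysophosphatidylserine, fell from between 26.2 and 34.3 CPM to between 3.59 and 7.93 (-2.42). Of 31 genes of matrix, proteases and coagulation, 6 were higher and 1 lower, led by Mmp13 (3.77) and by Mmp14, a membrane-bound collagenase, which rose from between 14.6 and 19.1 CPM to between 138 and 184 (3.29). The fibroblast and epithelial markers moved the other way, as given above.

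Of 40 transcription factors of macrophage identity, 5 were higher and 2 lower. Over all genes tested 6.31% were higher and 7.99% lower, so most genes of any kind were not called. The CCAAT enhancer factors parted, since Cebpb rose from between 276 and 339 CPM to between 719 and 833 (log2 fold change 1.45) and Cebpa fell from between 31.3 and 130 CPM to between 9.96 and 23.9 (-2.26, and -1.48 with the trends removed). Of 36 glycolysis and hypoxia genes, 10 were higher and none lower, at a median of 0.42. Slc2a1, the glucose transporter GLUT1, rose from between 22 and 25.2 CPM to between 43.8 and 72.2 (1.32), Ldha from between 254 and 309 CPM to between 469 and 682 (1.01) and Vegfa from between 22.5 and 28.4 CPM to between 66.0 and 75.3 (1.51). The treated libraries differed here, with list medians of 0.75 and 0.54 above PBS in replicates 1 and 2 and 0.05 and 0.09 in replicates 3 and 4.

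**Figure D4:**
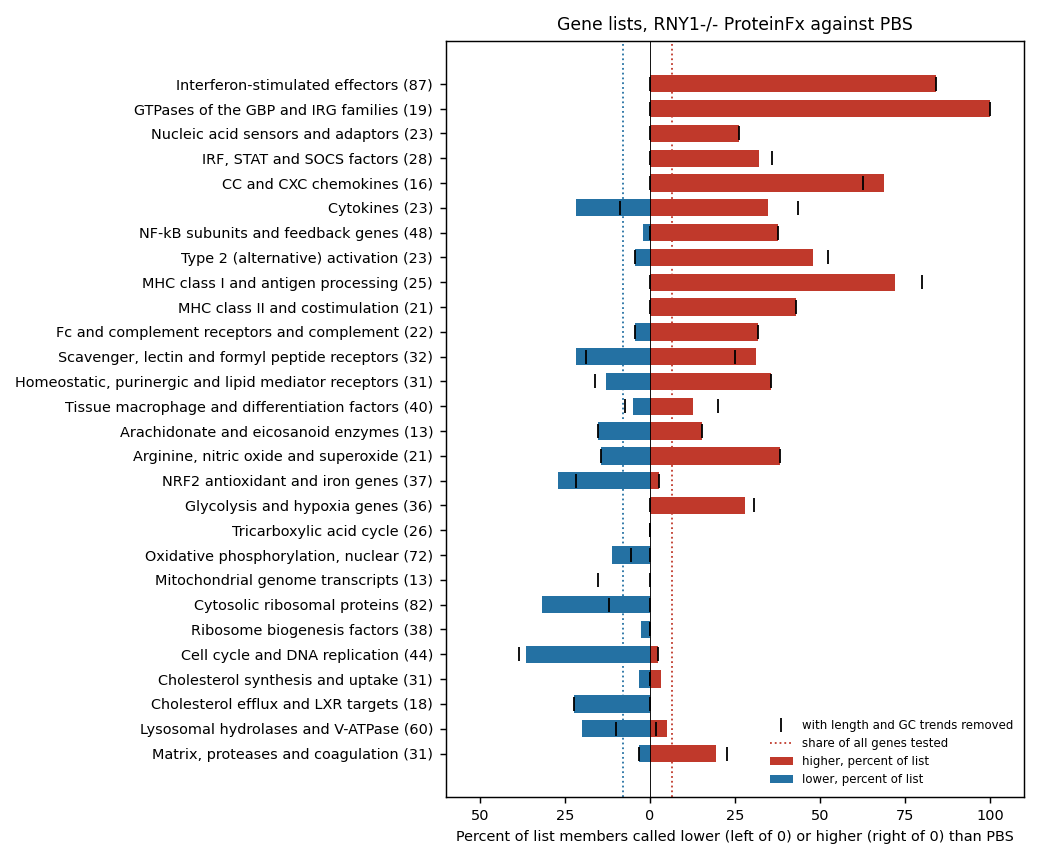
Percent of the members tested in each list that were higher (right of 0) or lower (left of 0) in RNY1-/- ProteinFx than in PBS, with black ticks for the same share after length and GC trends were removed and dotted lines at 6.31% and 7.99%, the shares of all genes tested. The guanylate-binding protein, interferon, MHC class I and chemokine lists reach furthest right, and the cell cycle and ribosomal protein lists furthest left.

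Where levels averaged 10 CPM or more, the falls were led by a cell cycle inhibitor and included an iron exporter. Cdkn1c (p57), an inhibitor of cyclin-dependent kinases, was at 51.4, 47.9, 80.5 and 64.2 CPM in PBS and at 6.23, 2.38, 4.78 and 2.59 CPM after RNY1-/- ProteinFx, a log2 fold change of -3.90. Slc40a1 (ferroportin), the only known exporter of iron from cells, was at 305, 281, 366 and 341 CPM in PBS and at 32.9, 24.9, 19.1 and 25.9 CPM after treatment (-3.57, SE 0.16, adjusted p = 1.44e-07). Both were low in every treated library, and the fall of Slc40a1 was as large with the trends removed (-3.94). Pcp4l1, a small calmodulin-binding protein, fell from between 41.5 and 56.2 CPM to between 1.59 and 4.2 (-3.75). Sort1 (sortilin), a sorting receptor of the Golgi, stood at -3.05, Rasgrp3, an activator of Ras, at -3.02, Mgst3, a microsomal glutathione transferase, at -2.69 and Igfbp4, which binds insulin-like growth factors, at -2.57.

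Iron and antioxidant genes fell more often than they rose, with 10 lower and 1 higher of 37 and a median of -0.24. The higher gene was Cp, the ferroxidase ceruloplasmin, from between 5.33 and 7.09 CPM to between 56.3 and 80.3 (log2 fold change 3.58). Ftl1, the ferritin light chain, was at 2898, 3265, 717 and 1842 CPM in PBS and at 604, 652, 337 and 340 CPM after treatment (-2.12, and -1.38 with the trends removed). PBS replicate 3 lay well below the other PBS libraries here, and the reads of Ftl1 are shared with pseudogenes such as Ftl1-ps1 (-2.63, then -1.97), so both levels are uncertain. Fth1, the heavy chain, did not pass the fold limit (0.44). Targets of NRF2 that mark oxidative stress were not called, with Hmox1 at -0.69, Gclm at -0.10, Nqo1 at -0.51 and Slc7a11 at 0.18.

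Lysosomal and lipid-handling genes fell in part. Of 60 lysosomal hydrolases and V-ATPase subunits, 12 were lower and 3 higher at a median of -0.29, and with the trends removed 6 were lower and 1 higher. Without PBS replicate 1, 7 were lower, without PBS replicate 2 or RNY1-/- ProteinFx replicate 3, 8 were lower, and 1 was higher without PBS replicate 2 or RNY1-/- ProteinFx replicate 4. Ctsd, the aspartic protease that was the most abundant lower DEG, was at 5825, 5878, 2090 and 3659 CPM in PBS and at 1664, 1555, 859 and 977 CPM after treatment (log2 fold change -1.73, and -1.28 with the trends removed). Lipa, the acid lipase that frees cholesterol from stored esters, fell from between 2182 and 2498 CPM to between 761 and 1065 (-1.26, then -1.65). Apoe, a cholesterol carrier, was a DEG at -1.52, but its groups overlapped and it stood at -0.82 with the trends removed. Of 18 genes of cholesterol efflux and the receptor LXR, 4 were lower and none higher. Of 31 genes of cholesterol synthesis and uptake 1 was lower and 1 higher, at a median of -0.03, so that list did not fall. Over all genes tested 7.99% were lower and 6.31% higher, and with the trends removed 4.2% were lower and 5.73% higher.

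Transcripts of the translation machinery were lower as a class. Their share of all counts was 6.21 ± 0.80% in PBS and 3.80 ± 0.53% after RNY1-/- ProteinFx (exact two-sided permutation p = 0.0286). Of 82 cytosolic ribosomal proteins, 26 were lower and none higher, at a median log2 fold change of -0.86, and 80 of the 82 values were below 0. The median differences from PBS by library were -0.65, -0.61, -1.06 and -1.03 after treatment and 0.22, 0.18, -0.47 and 0.04 within PBS, so the treated libraries were all below the lowest PBS library. Among the lower genes, Rps16 stood at -1.81 and Rplp1, of the ribosomal stalk, at -1.32, while Rps24 stood at 0.06.

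The number of ribosomal protein genes called varied between alternatives. It was 10, at a median of -0.59, with the trends removed, when Rplp1 stood at -0.56. It was 42 without PBS replicate 3, 17 without PBS replicate 1, 5 without RNY1-/- ProteinFx replicates 3 and 4, and 23 without the 3 libraries low in GC-rich genes. Of 72 nuclear genes of oxidative phosphorylation, 8 were lower and none higher, beside 7.99% of all genes tested, and the count was 13 without PBS replicate 3 and 5 without PBS replicate 1 or 2 or RNY1-/- ProteinFx replicate 3 or 4. The 13 transcripts of the mitochondrial genome all had values below 0, from -0.98 for mt-Nd6 to -0.06 for mt-Atp6, inside the fold limit, and with the trends removed 2 were lower.

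Genes of cell division fell. Of 44 cell cycle and DNA replication genes tested, 16 were lower and 1, Ccnd2, was higher, at a median of -0.69, and with the trends removed 17 were lower. Birc5 (survivin), a mitotic regulator, went from between 6.15 and 8.92 CPM to between 0.778 and 2.79 (log2 fold change -2.26). Being under 3 CPM in every treated library, it passed the limit only through PBS, so its direction was fixed by the limit. Stmn1, which destabilises microtubules, fell from between 17 and 18.4 CPM to between 3.52 and 4.27 (-2.18), and Top2a, a topoisomerase of dividing cells, from between 18.2 and 34.8 CPM to between 7.55 and 10.8 (-1.31). Mki67, the usual proliferation marker, was not called (-0.68, adjusted p = 0.112), and its groups overlapped.

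The study chose Mx1, Ifit1, Cxcl10, Ccl2 and Edn1 as candidates and Rab14, Arpc2 and Cltc as housekeeping genes with knowledge of these libraries, so their directions are not independent evidence. The first 4 rose, as given above. Edn1, the vasoconstrictor peptide endothelin 1, was at or under 3 counts in each PBS library and at 3.40, 2.38, 5.98 and 3.89 CPM after RNY1-/- ProteinFx, at least 6.81-fold higher, and fell under the limit for testing. Rab14, Arpc2 and Cltc had log2 fold changes of 0.10, -0.09 and 0.17 and were not called. Their signs were not stable, since Rab14 and Cltc stood at -0.25 and -0.15 with the trends removed.

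The same 4 libraries were compared with RNY1+/+ ProteinFx, the fraction from donors with intact RNY1. The paper names different suppliers for the knockout mice and for all other mice, and the labels do not give the donors. The absence of RNY1, the origin of the mice and the preparation of the fluid therefore cannot be told apart here. Few genes differed: 69 were higher with the RNY1-/- fraction (0.659% of 10471) and 122 lower (1.17%). The genes lowest relative to the RNY1+/+ fraction were Edn1, Olr1, Fpr1, Il1b and Fpr2. Fpr1, a receptor for formylated bacterial peptides, was at 9.45, 6.43, 7.57 and 5.97 CPM with the RNY1-/- and at 44.6, 46.9, 34.9 and 93.3 CPM with the RNY1+/+ fraction (log2 fold change -3.01, SE 0.31, adjusted p = 0.000194). Edn1 differed by -3.13, Olr1, a receptor for oxidised lipoprotein, by -3.07, Il1b by -2.74 and Fpr2 by -2.43. All 5 were low in PBS, so their levels with the RNY1-/- fraction lay between PBS and the RNY1+/+ fraction. The 5 largest rises were F13a1, a coagulation factor subunit, at 2.22, the centromere histone Cenpa at 1.67, Tcp11l2 at 1.58, Ccr2 at 1.55 and Ndrg1 at 1.55, and F13a1 ranged from 13.9 to 67.1 CPM among the RNY1-/- libraries alone.

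Members of the lists that rose against PBS were in part lower with the RNY1-/- than with the RNY1+/+ fraction. Of 87 interferon-stimulated effectors, 8 were lower with the RNY1-/- fraction and none higher, with 78 values below 0 and a median of -0.38. Mx1 was at 466 to 555 CPM with the RNY1+/+ fraction against 200 to 263 CPM with RNY1-/-, and 17 CPM on average in PBS (-1.26, adjusted p = 0.000126). Of 18 chemokines, 8 were lower, Cxcl10 by -2.36, and 1 was higher, Cxcl9 at 1.35. Of 49 NF-kB genes, 10 were lower, with Acod1 at -2.23 and Sod2 at -1.61. Arg1 was not called (0.34, adjusted p = 0.166), with 121 to 149 CPM against 151 to 242. The 82 ribosomal proteins had a median of 0.26. With counts scaled by library totals the split was 101 higher and 99 lower, and without RNY1+/+ ProteinFx replicate 4 it was 32 and 84.

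Against the RNY1-/- EVFx, the vesicle fraction of the same donor genotype, type 2 genes were higher and NRF2 and NF-kB genes lower with the protein fraction. The fractions were dosed in different units, by protein and by particles, so this sets their effects side by side as given. In all, 519 genes were higher in RNY1-/- ProteinFx (4.98% of 10418) and 422 lower (4.05%), or 710 and 320 when scaled by library totals. Arg1 was at 0.263, 0, 0.985 and 0 CPM after EVFx, and Flt1 at 0.131, 0, 0.985 and 0.673 CPM. Both were higher DEGs with the protein fraction, and no fold is given because the EVFx libraries held so few counts. Gatm, the first enzyme of creatine synthesis, differed by 5.35, Ccl7 by 4.91 and Ptgs1, the constitutive cyclooxygenase, by 4.40. Of 24 type 2 genes, 15 were higher and 1 lower at a median of 1.65, and Mrc1, at 69.8 to 106 CPM after EVFx, was among them (3.43). Of 22 Fc and complement genes, 14 were higher and 1 lower, and of 30 receptors for chemokines, nucleotides and lipids 18 were higher and 3 lower.

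Genes of oxidative stress and NF-kB were lower with the protein fraction than with vesicles. The 5 largest falls were Gsta3, a glutathione transferase, at -5.77, the neutrophil chemokine Cxcl3 at -5.44, the cystine transporter Slc7a11 at -5.37, the kinase inhibitor Cdkn2b at -5.00 and Spic, a factor induced by haem, at -4.87. Of 38 iron and NRF2 genes, 20 were lower and 3 higher at a median of -1.19, and Hmox1, which degrades haem, was at 614 to 737 CPM after ProteinFx and 6530 to 7815 CPM after EVFx (-3.53). Of 49 NF-kB genes, 24 were lower and 1 higher, and of 31 genes of cholesterol synthesis and uptake 14 were lower. For the interferon-stimulated effectors 3 of 87 were higher and none lower, at a median of 0.14. Ifit1 (-0.64, adjusted p = 0.106) and Mx1 (-0.26, adjusted p = 0.396) were not called, which does not show that their levels were equal.

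**Figure D5:**
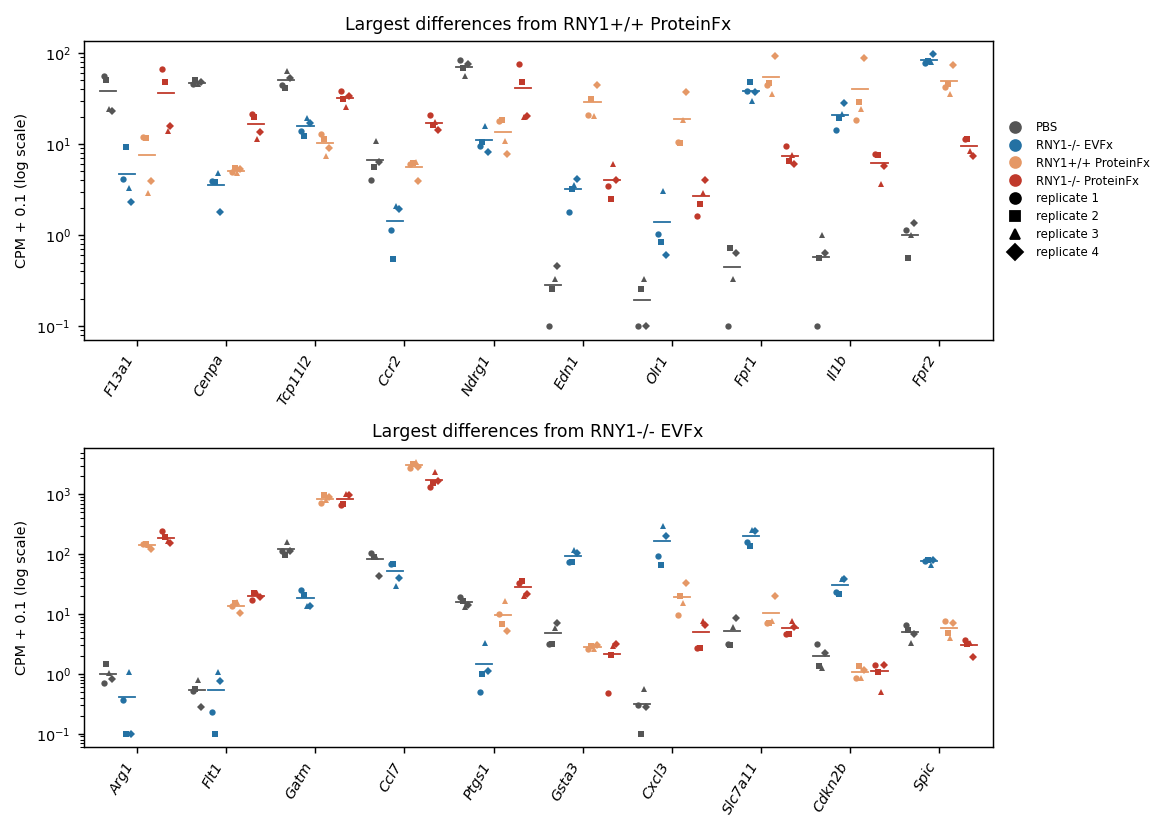
CPM + 0.1 (log scale) in each library of PBS, the RNY1+/+ ProteinFx, the RNY1-/- EVFx and the RNY1-/- ProteinFx for the genes with the largest differences of the RNY1-/- ProteinFx from the RNY1+/+ ProteinFx (first panel) and from the RNY1-/- EVFx (second panel). Fpr1, Fpr2, Il1b, Edn1 and Olr1 are higher with the RNY1+/+ than with the RNY1-/- ProteinFx, and Arg1 stays near 0 in both PBS and EVFx.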

How the data were processed

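RNA was read from the 3′ end after oligo(dT) capture with unique molecular identifiers. The authors filtered reads with fastp 0.24.0, aligned them with STAR 2.7.11, sorted them with SAMtools 1.22.1, removed duplicates by identifier and counted reads by strand over exons and 3′ UTRs with featureCounts of Subread 2.1.1, splitting reads with several sites between them. The submitters' processing notes name GRCm39. The deposited table holds these expected counts, which need not be whole, and deposited CPM values made from them by the authors. Reads shared by near-identical genes are thus divided, and their levels are uncertain.

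Counts were rounded to whole numbers and tested with edgeR 4.0.16 (R 4.3.3) by quasi-likelihood after TMM scaling, for the 8 libraries of each comparison, with no covariate. Genes passed filterByExpr and a mean of 3 CPM. Adjusted p-values are Benjamini-Hochberg values over all genes tested. The limits for a DEG were 0.05 for the adjusted p and 1, in either direction, for the log2 fold change. CPM levels are the deposited ones per library. In an alternative, splines per library took out the dependence on transcript length and GC content, with 4 degrees of freedom. Group sums were compared by exact two-sided permutation. Folds from a group with at most 3 counts per library are given against that floor, for counting error only. Alternatives were DESeq2 1.42.0, other scalings and filters, all 20 libraries in a single fit, a replicate block and libraries left out. The procedure was tested on simulated counts without length or GC trends, so that test does not cover the trends described above.

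Members and gene lists were chosen with earlier results of these data known. Genes were named by rank among DEGs that averaged 10 CPM or more in their 8 libraries and did not overlap: the 8 largest changes and the 5 most abundant in each direction against PBS, and the 5 largest in each direction in the other comparisons. Others stand as members of a list, taken from its largest changes, its most abundant genes or its defining members. The labels do not say whether libraries of a group are separate cultures, so p-values measure the spread between these libraries, which may be technical. Replicate numbers were not used as a pairing, since the labels name no shared source for them.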

Additional observations from a re-analysis of the deposited data

Results flagged for a closer look

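Among the named genes, Cxcl10 in PBS replicate 1 stood apart from its group at 2.66 CPM, with the nearest other PBS library at 5.52 CPM, by the gap of a single library relative to the range of 4. This was 1 of 66 gene and group pairs examined, and chance gives about 1 in 20.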

How the results depend on the processing

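Against PBS, DESeq2 called 713 genes higher and 854 lower, beside 685 and 867. With no fold limit there were 1817 higher and 2061 lower, with no filter on low counts 1031 higher and 1227 lower, and with a test against the fold limit itself 348 and 85. Lower genes numbered 441 with length and GC trends removed, 1370 without RNY1-/- ProteinFx replicates 1 and 2, and 364 without replicates 3 and 4. Leaving out a library gave 627 to 846 higher and 574 to 1182 lower, with 1182 lower without PBS replicate 3 574 without PBS replicate 2, 591 without PBS replicate 1 and 594 without RNY1-/- ProteinFx replicate 4. Against RNY1+/+ ProteinFx, no fold limit gave 230 higher and 353 lower, no filter 136 and 188, no RNY1-/- ProteinFx replicates 3 and 4 152 and 253, and leaving out a library 32 to 96 and 84 to 153. Against RNY1-/- EVFx, no fold limit gave 1581 and 1465, no filter 845 and 694, library totals 710 and 320, and leaving out a library 469 to 564 and 393 to 460. Rab14 (-0.25) and Cltc (-0.15) changed sign with the trends removed, and Arpc2 without RNY1-/- ProteinFx replicates 3 and 4 (0.029) and without these and PBS replicate 3 (0.036). Beyond what each alternative leaves out, the cause was not tested.

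A replicate block gave 701 higher and 994 lower against PBS, 60 and 113 against RNY1+/+ ProteinFx and 517 and 429 against RNY1-/- EVFx. Deviations of PBS and RNY1-/- ProteinFx libraries with the same number correlated at 0.51, 0.61, 0.63 and 0.018. Libraries with different numbers correlated as highly (0.53 for PBS 1 with 2, 0.51 for PBS 2 with 1, 0.55 for PBS 3 with 4), and not every library correlated best with its own number. The fourth value and the labels, which name no shared source, left the numbers unread as a pairing. Leaving out the 3 libraries low in GC-rich genes was chosen after seeing the data. Of the 33 genes named by rank or by the study, 20 kept their direction and their side of the threshold under all 22 settings. Depth limits genes near the floor of 3 counts.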
